A study of Mus musculus with 6 samples.

Results

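The genes described here are 47 listed genes of 2 linked stress programs, out of 35275 genes in the deposited table. The ATF4 arm holds 26 of them: regulators and feedback genes, enzymes of amino acid and one-carbon synthesis, and aminoacyl-tRNA synthetases. The ER chaperone arm holds 21: the stress sensors of the endoplasmic reticulum (ER) with Xbp1, the chaperones and folding factors of its lumen and membrane, and genes of ER-associated degradation. The list was given by gene name, and it was chosen with earlier results of these data known. All 47 genes were found in the table, and 45 passed the minimum level for the test, a mean of 0.5 FPKM (fragments per kilobase of transcript, scaled to the depth of a library). Vldlr and Stc2 were below it.

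The values come from poly-T selected messenger RNA of ID8-KMF cells. This is a line of mouse ovarian cancer (strain C57Bl6/J) derived from ID8 cells by passage in vivo. All 6 libraries come from Rgnef-/- cells, which lack the guanine nucleotide exchange factor Rgnef (gene Arhgef28). In 3 libraries the cells also carried a lentivirus for GFP-tagged Rgnef; these are called GFP-Rgnef here, and the 3 libraries of cells without it are called knockout. The cells grew in 2D on dishes seeded with Matrigel and were taken while subconfluent. Parental cells were not analysed here, and the effects of the lentivirus, the GFP tag and Rgnef cannot be told apart. Separate cultures or clones are not named in the labels for libraries of 1 group. The p-values therefore measure only how far these libraries vary, and that variation may be technical.

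ATF4 is a transcription factor of the integrated stress response. Kinases that sense stress phosphorylate the initiation factor eIF2, general translation falls, and translation of the Atf4 transcript rises, so that its RNA level is only part of its control. The ATF4 protein then activates genes for amino acid uptake and synthesis, tRNA charging and feedback. In the ER, unfolded proteins activate the sensors PERK (Eif2ak3), IRE1 (Ern1) and ATF6, of which PERK feeds into ATF4, while IRE1 splices Xbp1 RNA and ATF6 is cleaved to a transcription factor. Splicing of Xbp1 and cleavage of ATF6 are not visible in values per gene.

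Some promoters of the 2 arms hold short sequences through which these factors are known to act. RefSeq windows (GRCm38.p6, 250 bases before to 50 bases after each start, with the start counted as 0) matched 41 of the 47 genes with 43 windows. No window was matched for Cars, Wars, Nars, Atf6, Hyou1 and Manf. Both strands were searched for 3 motifs: the core TGATGCAA of the C/EBP-ATF response element, the ER stress response element (CCAAT and CCACG with 9 bases between) and its second form (ATTGG and CCACG with 1 base between). The ER stress response element was in 7 of 18 windows of the ER chaperone arm (38.9%), in 0 of 25 windows of the ATF4 arm and in 0.119% of 32851 windows of all genes. Its second form was in 2 windows of the ER chaperone arm (Dnajb11 and Herpud1), 0 of the ATF4 arm and 0.0365% of all. The C/EBP-ATF core was in 6 of 25 windows of the ATF4 arm (24.0%; Nupr1, Chac1, Vldlr, Pycr1, Aars and Yars), in 1 of the ER chaperone arm (Herpud1) and in 0.895% of all. No match overlapped a match of another motif. A match is a description of these letters and was not tested as a binding site. The genes were listed as members of these programs, so a higher share than in all windows may be built into the list.

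The following stretches show the element in all 7 genes of the ER chaperone arm that hold it, so that its fixed ends and varying middle can be compared. Each runs 5′ to 3′ on the strand of its gene, with the motif in capitals and 5 flanking bases in lower case on each side. Matches on the gene's own strand begin with CCAAT, and those on the other strand begin with CGTGG.
Hspa5: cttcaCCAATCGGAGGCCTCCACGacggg
Hsp90b1, upstream match: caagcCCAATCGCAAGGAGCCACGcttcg
Hsp90b1, downstream match: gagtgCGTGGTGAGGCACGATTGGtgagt
Canx: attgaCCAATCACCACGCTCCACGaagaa
Calr: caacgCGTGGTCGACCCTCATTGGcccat
Pdia6: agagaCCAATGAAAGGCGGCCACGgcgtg
Dnajc3: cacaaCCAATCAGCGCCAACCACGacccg
Creld2: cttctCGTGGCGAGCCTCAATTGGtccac
They lie at chr2:34772020-34772048 (plus strand) for Hspa5, at chr10:86705633-86705661 and chr10:86705528-86705556 (minus) for Hsp90b1 and at chr11:50325795-50325823 (minus) for Canx. Those of Calr (chr8:84847070-84847098, minus), Pdia6 (chr12:17266486-17266514, plus), Dnajc3 (chr14:118937822-118937850, plus) and Creld2 (chr15:88819515-88819543, plus) follow. Hsp90b1 alone among the 7 genes had a pair of matches, at -212 to -194 and at -107 to -89, on opposite strands. The match of Hspa5, at -65 to -47, was the nearest to its start among the 7.

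The stretches below show the C/EBP-ATF core in 3 genes of the ATF4 arm. Of the 5 tested genes of this arm that hold it, all had positive differences, and the 3 shown had the largest. The core is also shown in Herpud1, the one gene of the ER chaperone arm that holds it. For Herpud1 the second form of the ER stress response element follows.
Nupr1: ccagaTTGCATCAgacag
Chac1: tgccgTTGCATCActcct
Pycr1: gtgtaTGATGCAAtgcac
Herpud1, C/EBP-ATF core: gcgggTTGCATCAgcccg
Herpud1, second form: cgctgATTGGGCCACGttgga
They lie at chr7:126625568-126625585 (minus) for Nupr1, chr2:119351044-119351061 (plus) for Chac1 and chr11:120643839-120643856 (minus) for Pycr1. Those of Herpud1 lie at chr8:94386312-94386329 and chr8:94386372-94386392 (plus). In Nupr1, Chac1 and Herpud1 the core is on the strand opposite to the gene, so that it reads TTGCATCA here.

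The libraries implied depths of 15898964 to 17977069 reads. Arhgef28 matched the labels in all 6, with 5067 to 6095 reads in GFP-Rgnef and 12 to 14 in knockout libraries. Of 11 markers of ovarian surface and mesothelial epithelium, 7 had a mean of at least 1 FPKM, among them Krt18, Wt1 and Msln, while Krt7 was at most 0.307 and Pax8 at most 0.127 FPKM in any library. Their summed level was 1657 to 2465 FPKM in GFP-Rgnef and 1548 to 2483 FPKM in knockout libraries. Among leukocyte markers Adgre1 and Cd3e were at 0, and the summed level was 2.24 to 3.44 and 2.24 to 3.89 FPKM. Of 5 endothelial markers Kdr was at 0 and Tek held most of the sum of 95.7 to 108 and 85.9 to 146 FPKM. The sum of 5 fibroblast markers, 2 of them above 1 FPKM (Col1a1 and Dcn), was 47 to 71.2 FPKM in GFP-Rgnef and 33.8 to 44.2 FPKM in knockout libraries, and its part in the results below was not tested. In such bulk values fewer expressing cells and less RNA per cell cannot be told apart.

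Few genes of either arm differed between knockout and GFP-Rgnef cells beyond the spread of the libraries, and all that did were higher in the knockout. They were Cars and Psph in the ATF4 arm and Manf and Hsp90b1 in the ER chaperone arm, with ratios of the group means from 1.19 to 1.53. That is 4 of 45 tested genes (8.89%) higher and 0 lower, where 8.04% of all 11500 tested genes were higher and 5.34% lower (limma with trend on log2(FPKM + 1), adjusted p below 0.05 over all tested genes). The share of higher calls is thus near that of all genes. Of the 45 genes, 12 were higher and 1 lower at an unadjusted p below 0.05. Among all 11500 tested genes 1718 were higher and 1551 lower at that unadjusted p. When voom in limma was run on reads recovered from the FPKM values, 5 of the 45 genes were higher and 0 lower. Among all 11500 tested genes voom called 996 higher and 576 lower. These counts for all genes are also the comparison for the smaller groups of genes that follow. All differences are knockout minus GFP-Rgnef in log2(FPKM + 1), where the added 1 makes changes of low genes look smaller.

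Most differences were small and positive. Of the 45 genes, 37 had a positive difference (82.2%), against 46.8% of all tested genes, and the median was 0.12 against -0.02. In the ATF4 arm 18 of 24 were positive with a median of 0.06 and a range of -0.40 to 0.53. In the ER chaperone arm 19 of 21 were positive with a median of 0.17 and a range of -0.22 to 0.61. With 1 library left out, the median of the ATF4 arm went from -0.01 (without GFP-Rgnef 3) to 0.12 (without knockout 3). That of the ER chaperone arm went from 0.11 (without GFP-Rgnef 3 or knockout 2) to 0.26 (without knockout 3). The knockout libraries lay all above the GFP-Rgnef libraries for 4 of the 24 tested genes of the ATF4 arm and 7 of the 21 of the ER chaperone arm. They lay all below for 0 and 1. For all tested genes these shares were 16.7% above and 16.7% below.

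**Figure D1:**
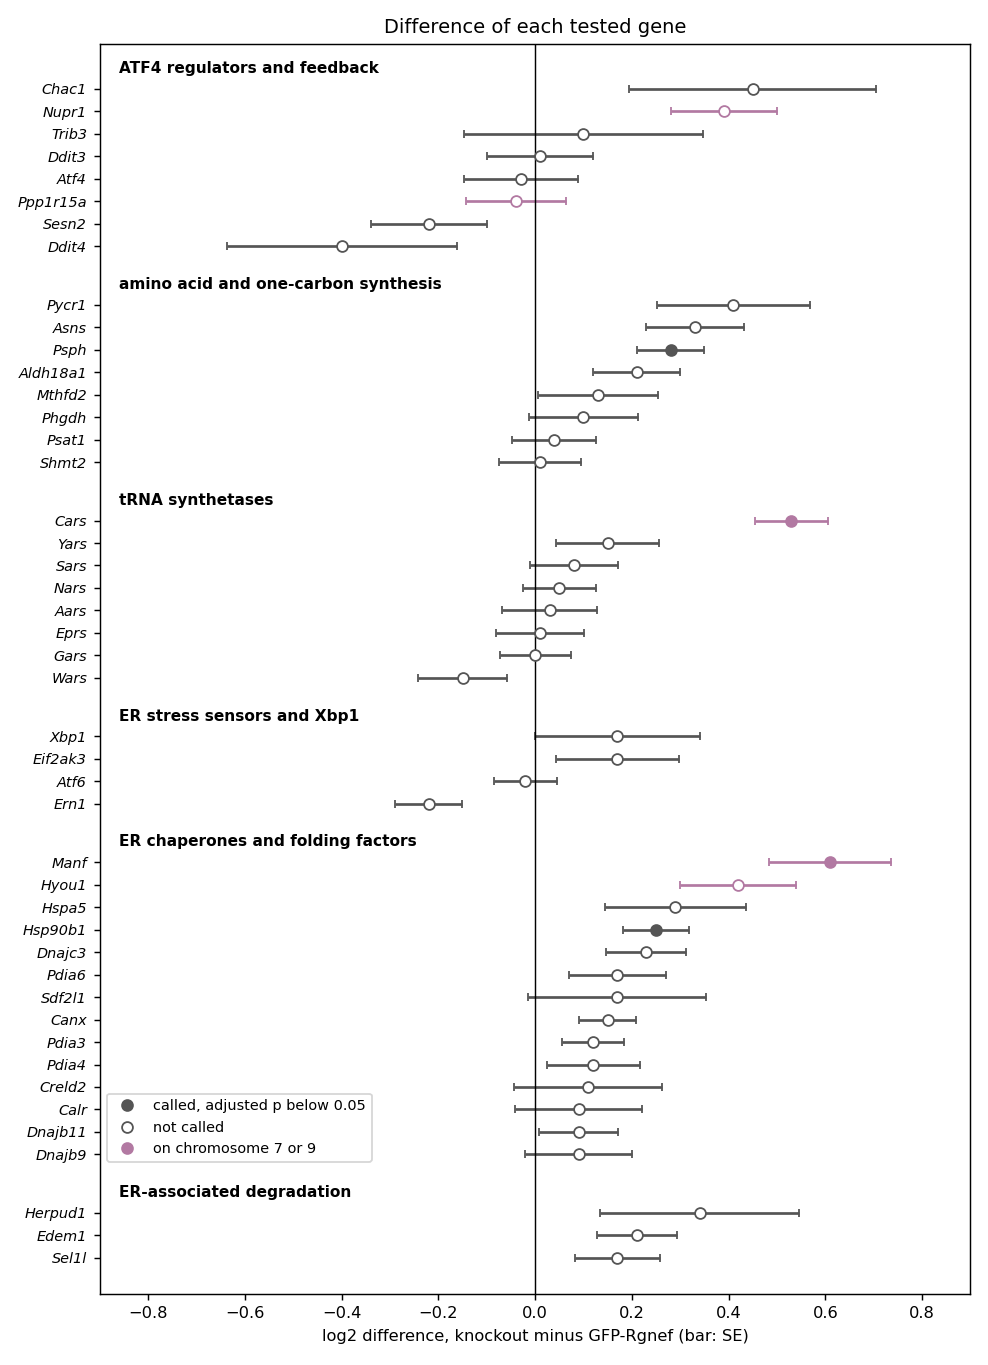
Difference of each of the 45 tested genes (x axis, log2 of FPKM + 1, knockout minus GFP-Rgnef, with its standard error from limma), grouped by role; filled points passed an adjusted p of 0.05 and purple points lie on chromosome 7 or 9. The 14 ER chaperones and folding factors and the 8 enzymes of amino acid and one-carbon synthesis are all right of 0, and 4 points are filled.

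The levels of the 47 genes spanned from 0.160 FPKM for Vldlr to 842 FPKM for Hspa5, as means over the 6 libraries. A mean of at least 100 FPKM was reached by 19 genes, and 8 were below 10 FPKM. The highest levels belonged to ER chaperones and, in the ATF4 arm, to the serine synthesis enzymes Psat1 (491 and 504 FPKM in GFP-Rgnef and knockout libraries) and Phgdh (289.6 and 309 FPKM). The feedback genes Chac1, Sesn2, Nupr1 and Ppp1r15a had means between 2.59 and 7.07 FPKM in either group.

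**Figure D2:**
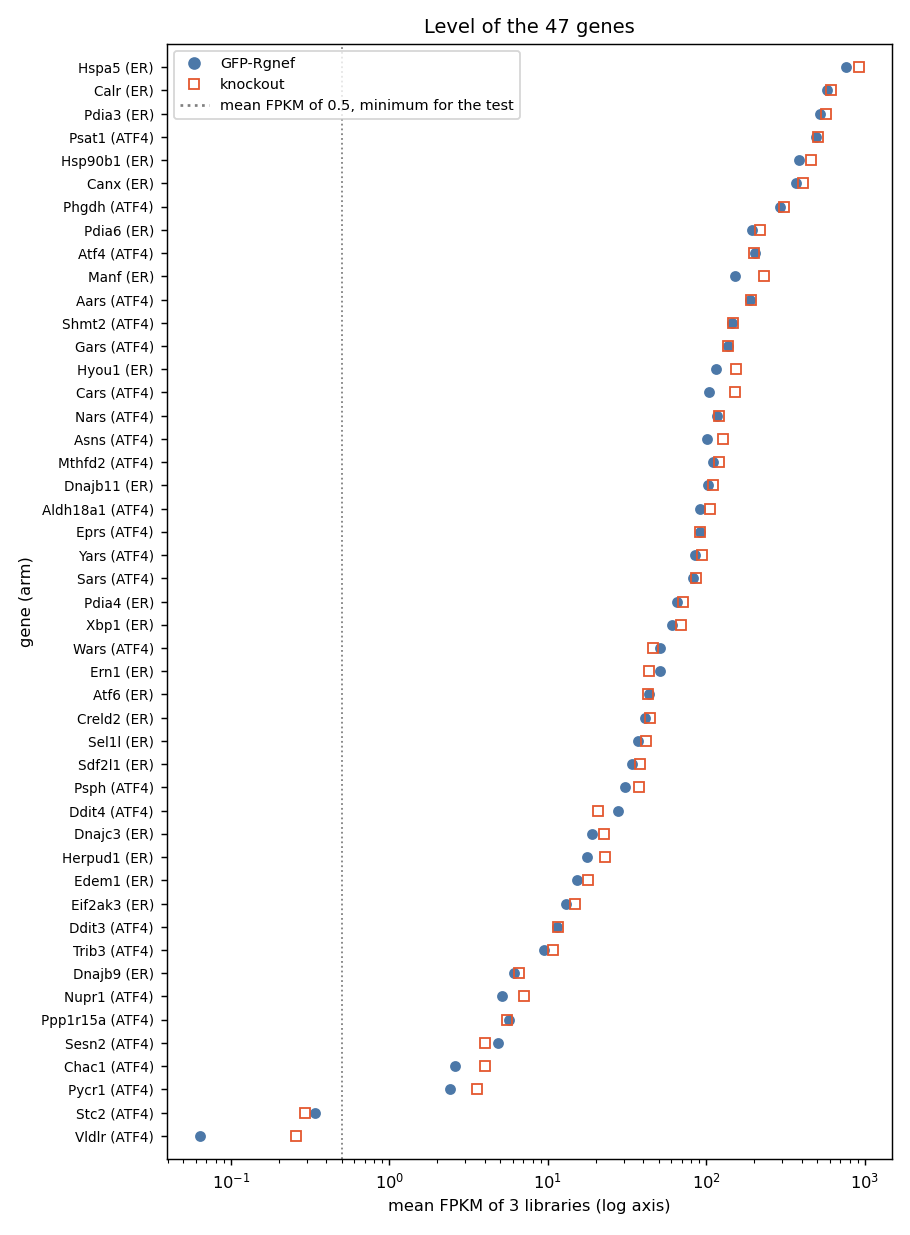
Mean FPKM of the 3 GFP-Rgnef libraries (blue circles) and the 3 knockout libraries (red squares) for each of the 47 genes, on a log axis, in the order of the mean over 6 libraries; the dotted line marks the minimum of 0.5 FPKM for the test. The means run from Hspa5 at 842 to Vldlr at 0.160 FPKM, and the symbols of the 2 groups are farthest apart for Vldlr (0.0635 and 0.257 FPKM), which is below the line.

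Among the regulators and feedback genes of the ATF4 arm 0 of 8 tested genes passed limma's test in either direction, while 1 was higher and 0 lower at an unadjusted p below 0.05, and voom called 0. Their median difference was -0.01, with 4 positive and 4 negative. Atf4 itself (chromosome 15, 80255184 to 80257541, plus strand, GRCm38) had 224, 213 and 172 FPKM in the GFP-Rgnef libraries 1 to 3 and 203, 219.8 and 175 FPKM in the knockout libraries 1 to 3. The groups overlapped, and library 3 was the lowest of each. The means were 203 ± 27.4 and 199 ± 22.8 FPKM (SD, n = 3), with a difference of -0.03 (SE 0.118, limma adjusted p = 0.919).

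Ddit3, which encodes the transcription factor CHOP that acts in prolonged ER stress, had 12.0, 11.0 and 11.3 FPKM in GFP-Rgnef and 13.6, 11.1 and 10.2 FPKM in knockout libraries. The knockout values spanned the GFP-Rgnef values on both sides, and the difference was 0.01 (SE 0.110, limma adjusted p = 0.954). Exons of Ddit3 share 68 bases with the more abundant Mars on the opposite strand (125 FPKM), and without strand reads of these bases cannot be told apart.

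Nupr1, a stress-induced chromatin-associated factor, came nearest to the threshold in this group. It had 5.42, 4.44 and 5.60 FPKM in GFP-Rgnef and 6.96, 7.71 and 6.52 FPKM in knockout libraries. All knockout values were above all GFP-Rgnef values, and the difference was 0.39 (SE 0.110, limma adjusted p = 0.0501). Nupr1 lies on chromosome 7, where the median difference of the 819 tested genes was 0.24. With the median deviation of each chromosome taken out of each library its difference was 0.14 (limma adjusted p = 0.534).

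Chac1, which encodes an enzyme that degrades glutathione, had 3.05, 3.04 and 1.70 FPKM in GFP-Rgnef and 4.96, 4.74 and 2.26 FPKM in knockout libraries. Libraries 1 and 2 of the knockout were above all others, but knockout library 3 was below GFP-Rgnef libraries 1 and 2. The difference of 0.45 (SE 0.255) did not pass (limma adjusted p = 0.301). Trib3, a pseudokinase that restrains ATF4, also had library 3 as the lowest of the knockout, with 12.2, 13.7 and 6.22 FPKM against 10.2, 10.4 and 7.95 FPKM in GFP-Rgnef libraries (difference 0.10, SE 0.247).

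The negative differences in this group did not pass either. Ddit4, an inhibitor of mTORC1 signaling, had 27.8 ± 7.56 FPKM in GFP-Rgnef and 20.8 ± 5.76 FPKM in knockout libraries, a difference of -0.40 (SE 0.238, limma adjusted p = 0.325). Sesn2, another inhibitor of mTORC1, differed by -0.22 (SE 0.120) and Ppp1r15a, the phosphatase subunit GADD34 that reverses eIF2 phosphorylation, by -0.04 (SE 0.104). For Ddit4 library 3 was the highest of each group, at 33.9 FPKM with GFP-Rgnef and 26.5 FPKM without, while for Sesn2 and Ppp1r15a the knockout library 3 was the lowest.

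For the untested genes Vldlr and Stc2 only reads can be described. Vldlr, a lipoprotein receptor gene, had 1, 3 and 6 reads in GFP-Rgnef and 19, 12 and 11 reads in knockout libraries, so that the groups did not overlap. With no minimum level its limma adjusted p was 0.060. Stc2, which encodes a secreted glycoprotein, had 6, 11 and 15 reads against 15, 4 and 10 (limma adjusted p = 0.856 with no minimum).

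All 8 enzymes of amino acid and one-carbon synthesis had positive differences, from 0.01 to 0.41 with a median of 0.17, and 1 of them, Psph, passed the test. Psph encodes phosphoserine phosphatase, the last step of serine synthesis (chromosome 5, 129765558 to 129787449, minus strand). It had 30.7, 30.8 and 30.9 FPKM in GFP-Rgnef and 35.1, 39.7 and 38.3 FPKM in knockout libraries. The knockout libraries were all above, and the GFP-Rgnef libraries lay close together. The means were 30.8 ± 0.0819 and 37.7 ± 2.33 FPKM (SD, n = 3), 1.22-fold apart, with a difference of 0.28 (SE 0.0699, limma adjusted p = 0.0340).

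The call of Psph was not firm. It was lost without any 1 library other than knockout 1, with a limma adjusted p of up to 0.128 without knockout 2, and without limma's trend (0.0518). Psph shares 452 exon bases with Cct6a, a chaperonin subunit gene on the opposite strand with a mean of 482 FPKM, whose own difference was 0.05 (SE 0.0570, limma adjusted p = 0.650). Without strand the reads of the shared bases cannot be told apart.

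The first steps of the same pathway did not pass. Phgdh and Psat1, which make phosphohydroxypyruvate and phosphoserine, differed by 0.10 (SE 0.113) and 0.04 (SE 0.0867), with limma adjusted p of 0.617 and 0.831. Shmt2 and Mthfd2, the mitochondrial enzymes that pass the serine carbon to folate, differed by 0.01 and 0.13 (limma adjusted p = 0.940 and 0.556).

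Asns, the asparagine synthetase gene and a much used readout of ATF4, had 111, 104 and 88.3 FPKM in GFP-Rgnef and 125, 140.3 and 118 FPKM in knockout libraries. All knockout libraries were above all GFP-Rgnef libraries, by a difference of 0.33 (SE 0.101), but the adjusted p was above the threshold (limma adjusted p = 0.0646). Of the proline synthesis enzymes, Aldh18a1 differed by 0.21 (SE 0.0899, limma adjusted p = 0.170) and the low Pycr1, at 2.43 ± 0.471 and 3.56 ± 0.808 FPKM, by 0.41 (SE 0.157, limma adjusted p = 0.133).

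Of the 8 tRNA synthetase genes Cars alone passed, and it had the smallest p of all 45 tested genes. Cars charges the tRNA of cysteine (chromosome 7, 143557230 to 143600090, minus strand). It had 113, 105 and 94.8 FPKM in GFP-Rgnef and 153, 153 and 147 FPKM in knockout libraries. The lowest knockout value was above the highest GFP-Rgnef value by more than the range within either group. The means were 104 ± 8.93 and 151 ± 3.77 FPKM (SD, n = 3), 1.45-fold apart, with a difference of 0.53 (SE 0.0745, limma adjusted p = 0.00429). Cars was called under all 15 alternatives. With the median deviation of each chromosome taken out its difference was 0.28 (limma adjusted p = 0.04996).

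The other 7 synthetase genes differed by -0.15 to 0.15, and for each of them the groups overlapped. Yars, for tyrosine, had 85.1 ± 11.4 and 94.0 ± 6.84 FPKM (SD, n = 3) and Wars, for tryptophan, 51.1 ± 5.72 and 45.9 ± 2.27 FPKM, the ends of this range (limma adjusted p = 0.413 and 0.344). Gars, for glycine, had 137 FPKM in both groups, and Aars, for alanine, 188 and 191 FPKM. Sars, Nars and Eprs, for serine, asparagine and the pair of glutamate and proline, differed by 0.08, 0.05 and 0.01. Yars shares 30 exon bases with C77080 on the opposite strand (51.3 FPKM).

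**Figure D3:**
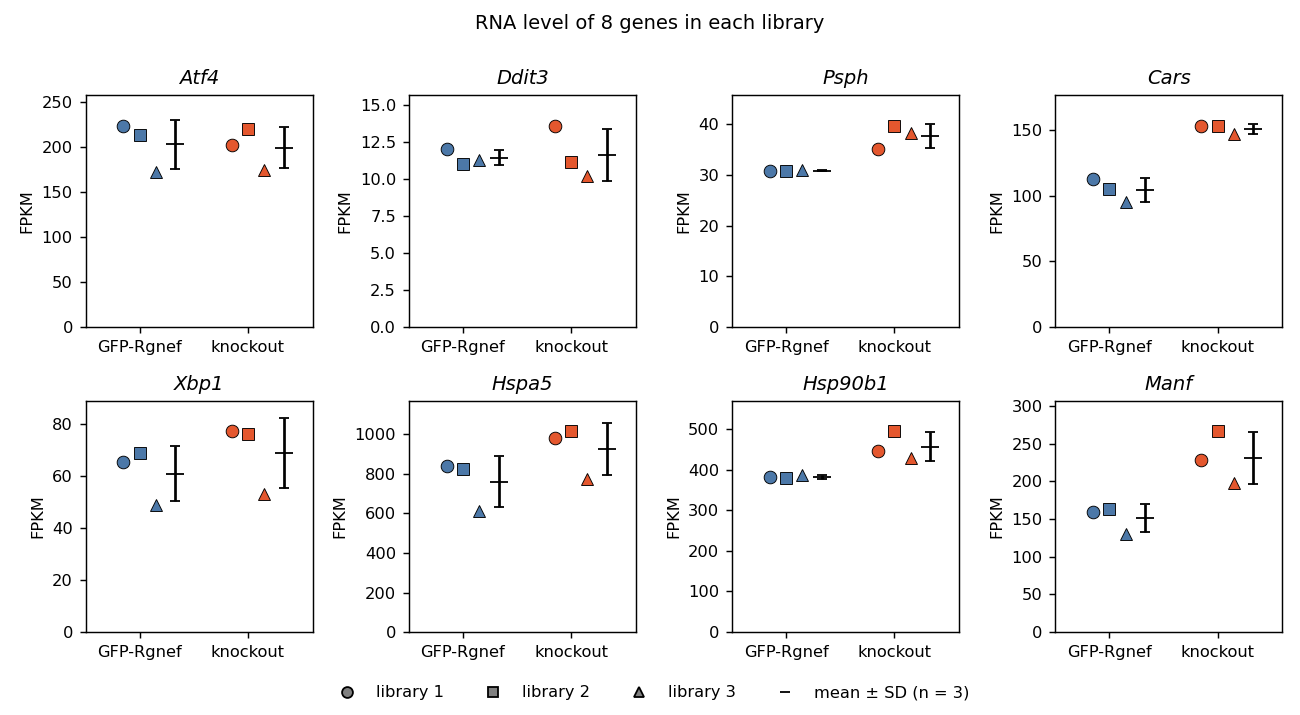
FPKM of 8 genes in each library (y axis from 0), with GFP-Rgnef in blue, knockout in red, library 1 as circle, 2 as square and 3 as triangle, and the mean ± SD of 3 libraries in black. Psph, Cars, Hsp90b1 and Manf show knockout points all above GFP-Rgnef points, while Atf4, Ddit3, Xbp1 and Hspa5 overlap.

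Among the ER stress sensors and Xbp1, 0 of 4 passed limma's test, while 0 were higher and 1 lower at an unadjusted p below 0.05, and voom called 0. That one was Ern1, the IRE1 gene, with 49.0, 50.9 and 53.0 FPKM in GFP-Rgnef and 44.7, 41.0 and 45.1 FPKM in knockout libraries. No other gene of the 45 had all knockout libraries below all GFP-Rgnef libraries. Its values gave a difference of -0.22 (SE 0.0689, limma adjusted p = 0.0715). Atf6 had 43.5 ± 1.90 and 42.7 ± 0.823 FPKM (SD, n = 3), and Eif2ak3, the PERK gene, 13.1 ± 0.769 and 14.9 ± 2.70 FPKM (limma adjusted p = 0.864 and 0.445).

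Xbp1, whose spliced RNA encodes the transcription factor of the IRE1 branch, had 65.4, 68.8 and 48.8 FPKM in GFP-Rgnef and 77.5, 76.1 and 53.2 FPKM in knockout libraries. Library 3 was the lowest of each group, and both library 3 values were below all 4 others. The means were 61.0 ± 10.7 and 69.0 ± 13.6 FPKM (SD, n = 3), with a difference of 0.17 (SE 0.170, limma adjusted p = 0.582).

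All 14 ER chaperones and folding factors had positive differences, from 0.09 to 0.61 with a median of 0.16, and 2 passed. Manf, a secreted and ER-resident factor that binds the chaperone BiP, had the largest difference of the 45 genes (chromosome 9, 106838312 to 106891979, minus strand). It had 159, 164 and 129.6 FPKM in GFP-Rgnef and 228, 267 and 198 FPKM in knockout libraries. The knockout libraries were all above, and library 3 was the lowest in each group. The means were 151 ± 18.7 and 231 ± 34.7 FPKM (SD, n = 3), 1.53-fold apart, with a difference of 0.61 (SE 0.126, limma adjusted p = 0.0177).

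The call of Manf was lost in 4 of 15 alternatives. The limma adjusted p was 0.0523 without knockout 1, 0.0648 without knockout 2 and 0.0535 with no minimum level. On chromosome 9 the median difference of 639 tested genes was 0.28, and with the median deviation of each chromosome taken out Manf differed by 0.32 (limma adjusted p = 0.181). Its exons share 146 bases with Dcaf1 on the opposite strand (23.5 FPKM) and 14 with Rbm15b (37.1 FPKM), whose own differences were 0.35 and 0.46.

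Hsp90b1 encodes GRP94, the HSP90 chaperone of the ER (chromosome 10, 86690209 to 86705509, minus strand), and its promoter is the one with a pair of elements shown above. It had 382, 378 and 386 FPKM in GFP-Rgnef and 446, 495 and 427 FPKM in knockout libraries. The GFP-Rgnef libraries lay close together and the knockout libraries were all above them. The means were 382 ± 4.12 and 456 ± 35.2 FPKM (SD, n = 3), 1.19-fold apart, with a difference of 0.25 (SE 0.0681, limma adjusted p = 0.0449). The call was lost without any 1 library other than knockout 3, with no minimum level (0.0961) and without limma's trend (0.0854), with a limma adjusted p of up to 0.159 without GFP-Rgnef 2.

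Hspa5 encodes BiP, the central HSP70 chaperone of the ER and the usual marker of the unfolded protein response. It had 842, 827 and 611 FPKM in GFP-Rgnef and 982, 1018 and 773 FPKM in knockout libraries. Knockout libraries 1 and 2 were above all GFP-Rgnef libraries, but knockout library 3 was below GFP-Rgnef libraries 1 and 2, so the groups overlapped. The means were 759.8 ± 129 and 924 ± 132 FPKM (SD, n = 3), 1.22-fold apart as for Psph, with a difference of 0.29 (SE 0.145, limma adjusted p = 0.239). The larger spread within its groups went with the larger standard error.

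Hyou1, an HSP70-like exchange factor for BiP on chromosome 9, came nearest to the threshold among the genes of this arm that did not pass. It had 125, 122 and 96.3 FPKM in GFP-Rgnef and 168, 159 and 134 FPKM in knockout libraries, with no overlap and a difference of 0.42 (SE 0.120, limma adjusted p = 0.0523). It passed by voom (adjusted p = 0.0438), and with the median deviation of each chromosome taken out its difference was 0.13 (limma adjusted p = 0.578).

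Among the lectin chaperones that bind sugar-bearing proteins, Canx had 363, 370.0 and 368 FPKM in GFP-Rgnef and 402, 429 and 393 FPKM in knockout libraries. These groups did not overlap, and the difference was 0.15 (SE 0.0583, limma adjusted p = 0.131). The luminal Calr, at 575 ± 76.7 and 615 ± 91.6 FPKM (SD, n = 3), differed by 0.09 (SE 0.132). Calr has an annotated pseudogene copy, Calr-ps, so its reads are uncertain.

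The disulfide isomerase genes Pdia3, Pdia4 and Pdia6 differed by 0.12, 0.12 and 0.17, with limma adjusted p of 0.287, 0.475 and 0.308. Pdia3 was the one of them without overlap, at 520.2 ± 5.98 and 564 ± 37.7 FPKM (SD, n = 3). Among the HSP40 cofactors, Dnajc3, which also inhibits PERK, had 19.1 ± 1.12 and 22.5 ± 1.65 FPKM with no overlap (difference 0.23, SE 0.0826, limma adjusted p = 0.112). Dnajb9 and Dnajb11 differed by 0.09 each. Sdf2l1, a partner of Dnajb11, and Creld2, a factor with isomerase activity, differed by 0.17 and 0.11 (limma adjusted p = 0.625 and 0.695).

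The 3 genes of ER-associated degradation had differences of 0.17 to 0.34, and limma passed 0 of 3, while 1 was higher and 0 lower at an unadjusted p below 0.05, and voom called 0. Edem1, which steers misfolded glycoproteins to degradation, had 15.2 ± 0.503 and 17.8 ± 1.45 FPKM (SD, n = 3) with no overlap (limma adjusted p = 0.131). Herpud1, a membrane component of the degradation complex, had 20.1, 19.3 and 13.6 FPKM in GFP-Rgnef and 25.2, 27.1 and 16.1 FPKM in knockout libraries. As for Hspa5, library 3 of both groups was low, and the difference of 0.34 (SE 0.206) did not pass (limma adjusted p = 0.335). Sel1l, the adaptor of the same complex, differed by 0.17 (SE 0.0878).

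Library 3 was low in both groups for most of these genes. It was the lowest library of its group in both groups for 32 of the 45 tested genes (71.1%), against 22.2% of all 11500 tested genes, and the highest in both for 3 (6.67%), against 26%. All 8 tRNA synthetase genes, 6 of 8 enzymes of amino acid and one-carbon synthesis, 9 of 14 ER chaperones and all 3 degradation genes had library 3 lowest in both groups. In the knockout alone it was lowest for all 14 chaperones.

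The median of library 3 minus the mean of libraries 1 and 2 was -0.23 for the ATF4 arm with GFP-Rgnef and -0.18 without. For the ER chaperone arm it was -0.19 and -0.26, and for all tested genes 0.01 and 0.02. This drop is as large as or larger than the median difference between knockout and GFP-Rgnef in each arm, 0.06 and 0.17. What sets the libraries numbered 3 apart is not given in the labels and was not tested.

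**Figure D4:**
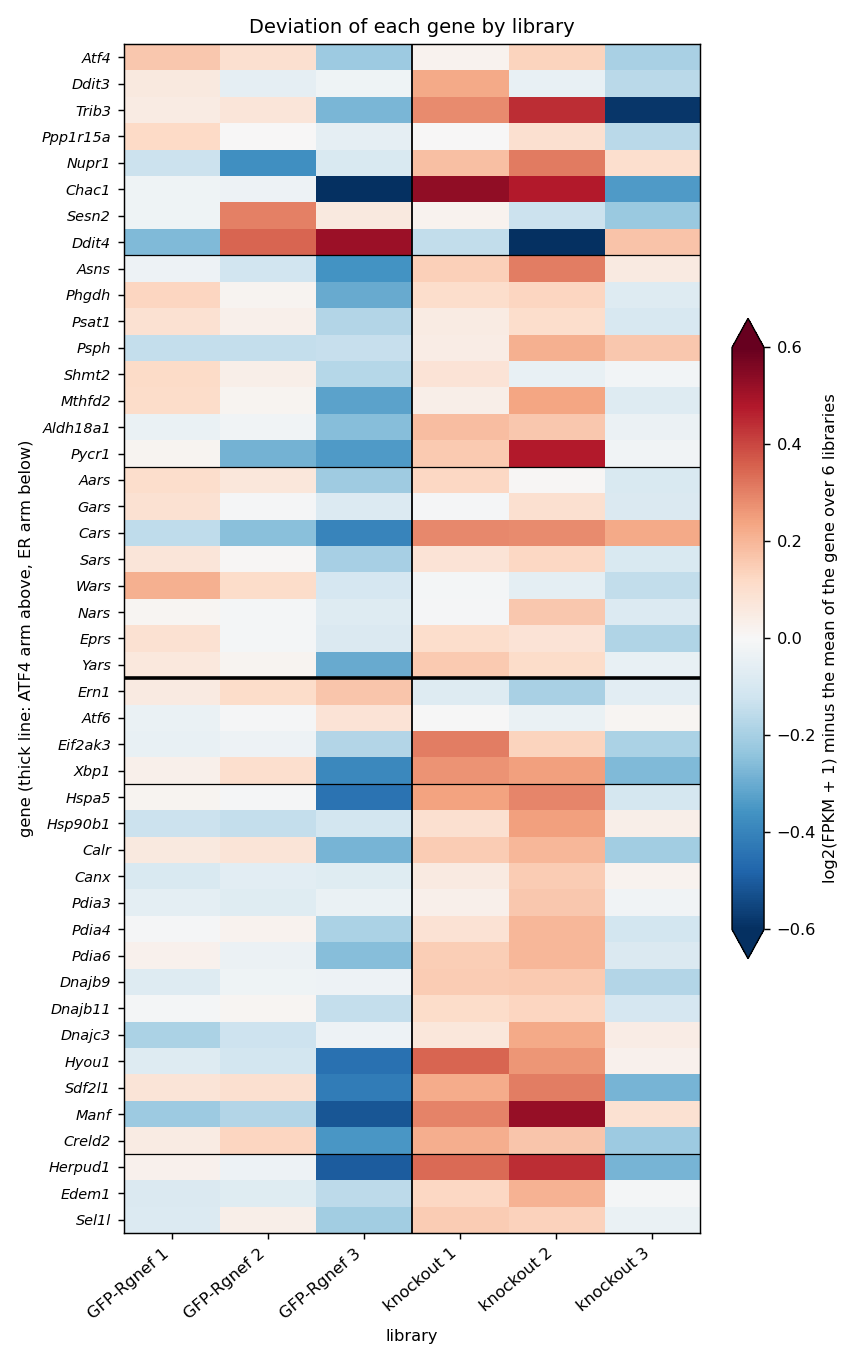
Deviation of log2(FPKM + 1) of each of the 45 tested genes (y axis) from its mean over 6 libraries (x axis), red above and blue below, with the ATF4 arm above the thick line. The columns of both libraries numbered 3 are mostly blue, with 41 of 45 genes below their mean in GFP-Rgnef 3 and 34 of 45 in knockout 3, and those of knockout 1 and 2 mostly red.

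Both arms were lowest in GFP-Rgnef library 3 and highest in knockout library 2. The median deviation of the ATF4 arm was 0.06, 0.00 and -0.19 in GFP-Rgnef libraries 1 to 3 and 0.09, 0.13 and -0.08 in knockout libraries. That of the ER chaperone arm was -0.04, -0.03 and -0.19 and then 0.15, 0.20 and -0.09. Knockout library 3 was thus below GFP-Rgnef libraries 1 and 2 in both arms, while medians over all genes stayed between -0.01 and 0.01.

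**Figure D5:**
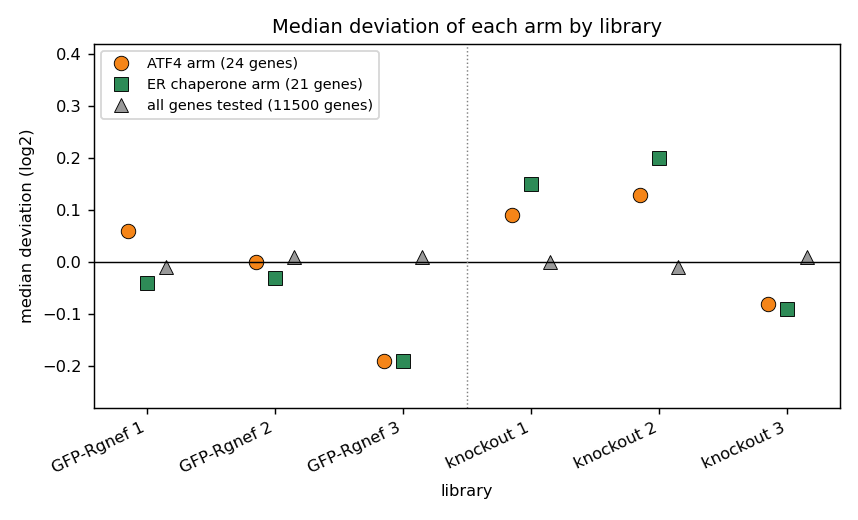
Median deviation from the mean of each gene over 6 libraries (y axis, log2) for the ATF4 arm (circles), the ER chaperone arm (squares) and all 11500 tested genes (triangles) in each library (x axis). Both arms are at -0.19 in GFP-Rgnef 3 and at -0.08 and -0.09 in knockout 3, while all genes stay within 0.01 of 0.

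With libraries 1 and 2 of each group alone, 12 of the genes were called higher and 0 lower, 6 in each arm. In that fit 11.2% of 11451 tested genes were higher and 9.25% lower. The 6 of the ATF4 arm were Cars, Psph, Asns (0.30, limma adjusted p = 0.0235), Aldh18a1 (0.20), Nupr1 (0.50) and Chac1 (0.53, limma adjusted p = 0.0125). The 6 of the ER chaperone arm were Manf (0.61, limma adjusted p = 0.00144), Hsp90b1, Hyou1, Dnajc3 (0.30), Herpud1 (0.39, limma adjusted p = 0.00963) and Hspa5 (0.26, limma adjusted p = 0.0127). The difference of Hspa5 was 0.29 with all libraries, so its size was close in both fits while its standard error went from 0.145 to 0.0557. With 2 libraries a group this fit rests on the spread between 4 libraries. The libraries left out are those in which most of these genes were low, so a smaller spread for these genes is built into the choice. The added calls are therefore a description and no separate support for a difference.

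Of the 5 genes on chromosomes 7 and 9, Cars and Manf passed and Nupr1 and Hyou1 came close, while Ppp1r15a did not. On these chromosomes 236 of 819 and 234 of 639 tested genes were called higher and 7 and 8 lower. Outside them 40 genes of the 2 arms were tested, of which 2 (Psph and Hsp90b1) were higher and 0 lower, against 455 higher and 599 lower of 10042 tested genes. The median of the ER chaperone arm outside them was 0.17, as for the whole arm, and that of all genes -0.04. What moves these chromosomes was not tested.

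Among the 18 genes of the ER chaperone arm with a window, the median difference was the same with and without the ER stress response element. Manf (0.61) and Hyou1 (0.42), the largest differences of that arm, had no window and are left out here. So is Cars (0.53), the largest of the ATF4 arm. The 7 genes with the ER stress response element had a median difference of 0.17 and a range of 0.09 to 0.29, with 1 called (Hsp90b1). The 11 genes with a window but no such match had a median of 0.17 and a range of -0.22 to 0.34, with 0 called. They include Dnajb11 and Herpud1, which hold the second form of the element, and Herpud1 has the largest difference among them. In the ATF4 arm the 5 tested genes with the C/EBP-ATF core had a median of 0.39 and a range of 0.03 to 0.45, with 0 called. They were Aars (0.03), Yars (0.15), Nupr1 (0.39), Pycr1 (0.41) and Chac1 (0.45), so the median is the value of Nupr1. Nupr1 lies on chromosome 7, and with the median deviation of each chromosome taken out it differed by 0.14 (limma adjusted p = 0.534). Nupr1, Pycr1 and Chac1 were low, with means of 6.11, 2.99 and 3.29 FPKM over the 6 libraries. The 16 tested genes without the core had a median of 0.02 and a range of -0.40 to 0.33, with 1 called (Psph). These are descriptions of few genes, and the difference between them was not tested.

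Other genes of the same programs, from lists of genes that are not members, went both ways. Of 35 further genes of ATF4 and the integrated stress response 32 were tested, 3 rose and 4 fell, with a median of -0.08. Atf5, a related factor that is also controlled by translation, rose from 9.45 ± 0.440 to 20.7 ± 1.48 FPKM (SD, n = 3; difference 1.05, limma adjusted p = 0.000341). Cebpg, a dimer partner of ATF4, rose from 31.6 ± 1.09 to 42.3 ± 1.88 FPKM (limma adjusted p = 0.00762). Atf5 and Cebpg lie on chromosome 7, and with the median deviation of each chromosome taken out Cebpg differed by 0.16 and lost its call (limma adjusted p = 0.245), while Atf5 was called under all 15 alternatives. Bcat1, a branched-chain amino acid transaminase gene on chromosome 6, rose from 4.95 ± 0.699 to 9.97 ± 1.25 FPKM (limma adjusted p = 0.00429).

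The 4 that fell include known ATF4 targets. Slc7a11, the cystine and glutamate exchanger, had 6.27, 6.13 and 17.1 FPKM in GFP-Rgnef and 1.53, 1.43 and 2.63 FPKM in knockout libraries (difference -1.80, SE 0.346, limma adjusted p = 0.0132). Here library 3 was the highest of each group, the opposite of most members. Slc1a4, a neutral amino acid transporter, differed by -0.47 (limma adjusted p = 0.0158), the secreted stress factor Gdf15 by -0.46 (0.0346) and Eif4ebp1, a repressor of cap-dependent translation, by -0.24 (0.0401). All 4 lost their call without knockout 2, with a limma adjusted p of 0.0631 for Slc7a11, 0.0580 for Slc1a4, 0.106 for Gdf15 and 0.123 for Eif4ebp1. Slc1a4, Gdf15 and Eif4ebp1 also lost it without GFP-Rgnef 1 or GFP-Rgnef 2, and Gdf15 and Eif4ebp1 without GFP-Rgnef 3 or knockout 1. With the median deviation of each chromosome taken out Gdf15 (-0.39, limma adjusted p = 0.0891) and Eif4ebp1 (-0.18, 0.161) lost theirs too.

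Of 12 further tRNA synthetase genes 1 rose and 0 fell, with a median of -0.03. Qars, for glutamine on chromosome 9, rose from 95.5 ± 4.57 to 113 ± 1.88 FPKM (difference 0.24, limma adjusted p = 0.0361). The call was lost without any 1 of the 6 libraries (limma adjusted p of 0.0573 to 0.110), and with the median deviation of each chromosome taken out the difference was -0.05. The most abundant of the others, Vars for valine, had 481 ± 67.9 and 443 ± 47.8 FPKM (SD, n = 3; limma adjusted p = 0.593).

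Of 46 further genes of ER protein folding, entry and degradation 45 were tested, 4 rose and 2 fell, with a median of 0.00. Those that rose were Spcs2 of the signal peptidase (chromosome 7, 35.1 ± 1.47 to 51.9 ± 2.92 FPKM), the prolyl isomerase genes Fkbp11 (41.5 ± 2.79 to 59.8 ± 6.44 FPKM) and Ppib (chromosome 9, 40.1 ± 3.62 to 56.1 ± 9.37 FPKM), and the calcium-binding Rcn1 (37.1 ± 1.13 to 45.2 ± 2.91 FPKM; SD, n = 3). Their limma adjusted p were 0.00311, 0.0108, 0.0384 and 0.0399. Those that fell were Edem2, of the same family as Edem1 (36.2 ± 1.55 to 29.3 ± 1.56 FPKM, limma adjusted p = 0.0306), and Vcp, the ATPase that pulls proteins out of the ER (570.4 ± 29.1 to 469 ± 29.3 FPKM, limma adjusted p = 0.0323). Of these 6 calls only that of Spcs2 held without each library in turn. Spcs2 has an annotated pseudogene copy, Spcs2-ps, so its reads are uncertain. With the median deviation of each chromosome taken out, Spcs2 (0.30, limma adjusted p = 0.0522), Ppib (0.17, 0.442), Edem2 (-0.27, 0.0534) and Vcp (-0.22, 0.110) lost their calls, and Fkbp11 and Rcn1 did not. Rcn1 lost its call without any 1 of the 6, and Fkbp11, Ppib, Edem2 and Vcp without GFP-Rgnef 2 or knockout 2, with a limma adjusted p of up to 0.145. Ppib, Edem2 and Vcp also lost it without GFP-Rgnef 1 or knockout 3. In this list library 3 was the lowest in both groups for 12 of 45 genes (26.7%), near the share of all genes. In the further tRNA synthetase list it was so for 8 of 12 genes (66.7%), near the 71.1% of the members. In the further list of ATF4 and the integrated stress response it was so for 11 of 32 (34.4%).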

How the data were processed

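The authors deposited 1 table of FPKM values for 6 libraries and 35275 Ensembl genes. Per the submitters' processing notes the tools were CASAVA 1.8, TopHat2 2.0.9 and DESeq2 and the build mm10; their roles, the annotation of genes and how strand was handled are not given in the sources used here. GENCODE M 21 (GRCm38) gave symbols for 34490 genes and coordinates. Groups came from the labels.

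Genes with a mean FPKM of 0.5 or more were tested on log2(FPKM + 1) in R 4.3.3 by limma 3.58.1 (trend on), and p-values were adjusted over 11500 genes after Benjamini and Hochberg. Scripts were tested on simulated data. Whole reads were recovered from the FPKM values by finding, for each of 19655 genes, a length that makes its values whole within 0.02 reads (the annotated length for 4228 genes, otherwise the smallest such length); they summed to 99.77% to 99.85% of the implied depths and were tested with voom. Reads set the counting error of each value, which is larger for low genes. Tables used pandas 2.3.3 and numpy 2.4.6 in Python 3.11.15, and plots matplotlib 3.10.9.

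Every listed gene could be named. Values in every library follow for genes called and for Atf4, Ddit3, Xbp1 and Hspa5; those of Nupr1, Chac1, Trib3, Asns, Ern1, Hyou1, Canx, Herpud1 and Slc7a11 and reads of Vldlr and Stc2 were added after the values were seen. From each further list up to 4 called genes per direction were taken by p, and where fewer than 2 passed the most abundant were added. Members, lists and alternatives were chosen with earlier results of these data known. Promoter sequences are from RefSeq.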

Additional observations from a re-analysis of the deposited data

How the results depend on the processing

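Values of the members under the alternatives (pseudocount, minimum level, scaling, trend, block, each library left out, voom, chromosome centring, libraries 1 and 2 alone) numbered 672, of which 633 stayed on their side of the threshold, 17 lost and 22 gained a call, and 0 called values changed sign; Qars, of a further list, went to -0.05 with chromosome centring. The ATF4 arm had 2 higher calls, and 1 to 2 with 1 library left out, 6 with libraries 1 and 2 alone; its lower calls were 0 throughout. The ER chaperone arm had 2, and 0 to 3 with 1 library left out (0 without knockout 1 or knockout 2), 0 with no minimum level, 1 without limma's trend, 1 with chromosome centring and 6 with libraries 1 and 2 alone. Over all genes 925 higher and 614 lower calls became 458 to 848 and 198 to 580 with 1 library left out and 495 and 388 with chromosome centring; lower calls were 394 with no minimum level and 1059 with libraries 1 and 2 alone. Among uncalled values of the members and the named genes of the further lists, 36 changed sign. The causes were not tested, apart from the numbers of genes and libraries that each alternative fixes.

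Replicate numbers are shared between the groups, and the labels do not say whether they mark pairs. Deviations of same-numbered libraries correlated by 0.321, -0.02 and 0.552 for numbers 1, 2 and 3. GFP-Rgnef 2 correlated best with knockout 1 (0.399). Each library 3 correlated negatively with libraries 1 and 2 of the other group (-0.2 to -0.523). The deviations were taken from the mean of the 3 libraries of a group, so they cancel out within it. These negative values are therefore largely fixed by the 0.552 of number 3 and are no separate observation. Whether same-numbered libraries share a batch was not tested. With the replicate number as a block 6 genes of the ATF4 arm were higher, 6 of the ER chaperone arm higher and 1 lower, and 1517 and 1253 of all genes.

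Depths of 15898964 to 17977069 reads limit low genes such as Vldlr and Stc2, and 3 libraries a group limit small differences: the smallest ratio that passed among the members was 1.19.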
